A study of Mus musculus with 6 samples.

Results

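miR-375 is a microRNA (miRNA, a short RNA that guides repression of messenger RNAs) made from a single hairpin gene, Mir375. It was chosen by name, as the rows for its arms, mmu-miR-375-3p and mmu-miR-375-5p, and 1 of these 2 names, the 3p arm, had a row among the 1542 rows of the count table. The 5p arm was not analysed here, so every level below is that of miR-375-3p. Small RNA was sequenced from the kidneys of females aged 17 weeks, in 3 libraries for each of 2 strains. The controls were C57BL/6 mice, labelled wild type. The other group, MRL/lpr (genotype MRL/MpJ-Fas<lpr>/J), carries the lpr mutation of the Fas gene, which encodes a death receptor of lymphocytes, on the MRL background. These mice develop a spontaneous lupus-like disease with nephritis. No treatment is given in the labels for either group. Genetic background, the lpr mutation and disease differ together between the groups and cannot be told apart, and nothing in the labels ties each library to its own animal, so the p-values measure the spread between these libraries, which may be technical.

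A miRNA gene is transcribed as a long precursor, cut to a hairpin and then to a short duplex of a 5p and a 3p strand, of which usually a single strand is loaded into an Argonaute protein. Bases 2 to 8 of the loaded strand, the seed, pair with target messenger RNAs. miR-375 is best known from the endocrine pancreas, where its 3p strand restrains insulin secretion and represses Mtpn (myotrophin), and it is also enriched in pituitary, gut and airway neuroendocrine cells and in other secretory epithelia. The libraries were made from whole kidney, so which kidney cells held miR-375-3p was not analysed here, and fewer cells of a type and less RNA per cell cannot be told apart.

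The hairpin is shown because both strands come from it, with the 5p strand in capitals, and the mature 5p strand is shown with its seed in capitals (RefSeq, GRCm38.p6, 5′ to 3′). The 3p strand comes from the 3′ side of the hairpin.
Mir375 hairpin: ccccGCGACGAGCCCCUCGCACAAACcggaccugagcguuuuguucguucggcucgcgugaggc
miR-375-5p: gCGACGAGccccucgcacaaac

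The hairpin lies at chr1:74900658-74900721 on the minus strand (GRCm38.p6) and the 5p strand at chr1:74900696-74900717. In the GENCODE M21 annotation of the same build it overlaps no other gene, so it is neither exonic nor intronic. It lies 7514 bases from Cryba2, a crystallin gene, and 1349 bases from Cfap65, a gene of cilia and flagella, both on the minus strand as well, and 15238 bases from Fev, a transcription factor gene of serotonergic neurons. The hairpin is 64 bases long with a GC content of 67.2%, against a median of 51.7% over the 1005 hairpins in the RefSeq table, of which 52 had a higher GC content. It holds 10 CG dinucleotides, while the median hairpin holds 1, and 22 other hairpins hold as many or more. Its predicted fold at the default temperature of RNAfold has an energy of -26.8 kcal/mol with 42 of the 64 bases paired, and 16 of the 22 bases of the 5p strand are paired. Its longest run of bases shared with any other hairpin in the table is 9, with Mir3092, and 0 of the other mature miRNAs in the table have the seed of miR-375-5p. Reads as long as a mature miRNA therefore have no exact match in another hairpin of that table. Matches elsewhere in the genome were not analysed here.

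miR-375-3p was lower in every MRL/lpr kidney library than in every C57BL/6 library. Counts of mmu-miR-375-3p were 3122, 4590 and 5159 in C57BL/6 replicates 1, 2 and 3 and 2221, 1840 and 1706 in the corresponding MRL/lpr replicates. The totals behind these counts ran from 5259528 to 6773829 counts per library. As a share of all counts, miR-375-3p took 0.0575%, 0.0739% and 0.0762% in C57BL/6 (95% Wilson intervals 0.0555 to 0.0595, 0.0718 to 0.0760 and 0.0741 to 0.0783). In MRL/lpr it took 0.0344%, 0.0350% and 0.0307% (intervals 0.0330 to 0.0358, 0.0334 to 0.0366 and 0.0293 to 0.0322). These intervals cover counting error only, and they do not overlap between the strains. C57BL/6 replicate 1 lay below both other libraries of its strain by more than its counting error, so libraries of one strain also differed.

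After scaling of the libraries to a common composition with the TMM method, the level was 639, 737 and 804 CPM (counts rescaled to the same library total) in the C57BL/6 libraries. The MRL/lpr libraries had 314, 357 and 282 CPM. The lowest C57BL/6 library was 1.79-fold above the highest MRL/lpr library, while the highest and the lowest library differed 1.26-fold within each strain. The gap between the strains was thus wider than the range within either of them. The mean was 727 ± 83.0 CPM for C57BL/6 against 318 ± 37.5 CPM for MRL/lpr (SD, n = 3), and an exact two-sided permutation test gave p = 0.1, the smallest p that 3 against 3 can give. Groups that do not overlap were seen for 130 of the 451 tested miRNAs, or 28.8%, and for 67, or 14.9%, with MRL/lpr as the lower group, so the separation alone does not set miR-375-3p apart.

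**Figure D1:**
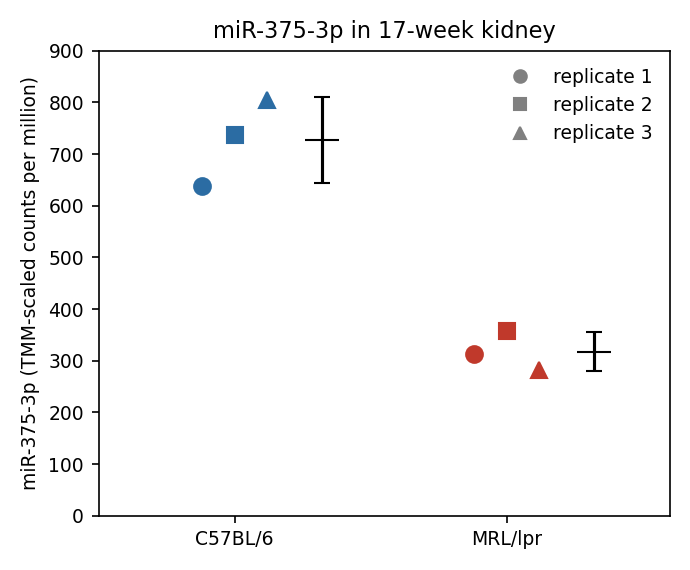
Level of miR-375-3p in each kidney library (vertical axis, TMM-scaled CPM, from 0) for the 3 C57BL/6 and 3 MRL/lpr libraries; each symbol is a replicate, and the bar and whiskers beside each group are mean ± SD. The C57BL/6 libraries lie between 639 and 804 CPM and the MRL/lpr libraries between 282 and 357 CPM.

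In the fit over all 451 miRNAs that passed the filter on low counts, miR-375-3p fell 2.29-fold in MRL/lpr. Its log2 fold change (MRL/lpr over C57BL/6) was -1.19 ± 0.20 SE (quasi-likelihood test of edgeR, adjusted p = 0.00793 by Benjamini-Hochberg), and its p was the sixth smallest of the 451. In this fit 28 miRNAs (6.21%) passed an adjusted p of 0.05, 19 higher (4.21%) and 9 lower (2.00%) in MRL/lpr. Scaled by library size alone, the calls split into 24 higher and 6 lower. The number of calls was 15, 54 and 11 without C57BL/6 replicates 1, 2 and 3, and 5 without MRL/lpr replicate 3. miR-375-3p passed with each of the first 3 left out. Without MRL/lpr replicate 3, the library with its lowest level, its log2 fold change was -1.10 ± 0.24 SE and the edgeR adjusted p was 0.0654, so the call was lost.

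miR-375-3p combined a moderate fold with a high level. Of the 28 calls it was the third most abundant, after miR-204-5p and miR-125b-5p, which both rose (miR-125b-5p missed the threshold in 8 of 17 other settings), and it ranked 85 of 451 by mean CPM and 44 of 451 by the size of its fold change. By raw count it stood at rank 81, 77 and 77 of the 1542 rows in the C57BL/6 libraries. In the MRL/lpr libraries it stood at rank 101, 102 and 106. The 9 lower calls were 5 miRNAs with miRBase names and 4 entries that the authors predicted. miR-375-3p was the most abundant of the named 5. Next to its 522 CPM over the 6 libraries, miR-676-3p had a mean of 68.5 CPM, miR-31-5p 62.8, miR-383-5p 38.7 and miR-181a-2-3p 28.8 CPM. Their log2 fold changes were -0.97 ± 0.23, -0.92 ± 0.23, -5.76 ± 0.48 and -1.09 ± 0.26 SE, so the fitted change was larger for miR-383-5p and slightly smaller for the other 3, although differences between these miRNAs were not tested. miR-383-5p passed in all 17 other settings tried, while miR-676-3p and miR-181a-2-3p each missed the threshold in 7 of them and miR-31-5p in 10, with the replicate block (the replicate number as a term in the fit) among them each time. Adapter ligation favours some miRNA ends over others, so these levels are less comparable between miRNAs than between libraries.

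**Figure D2:**
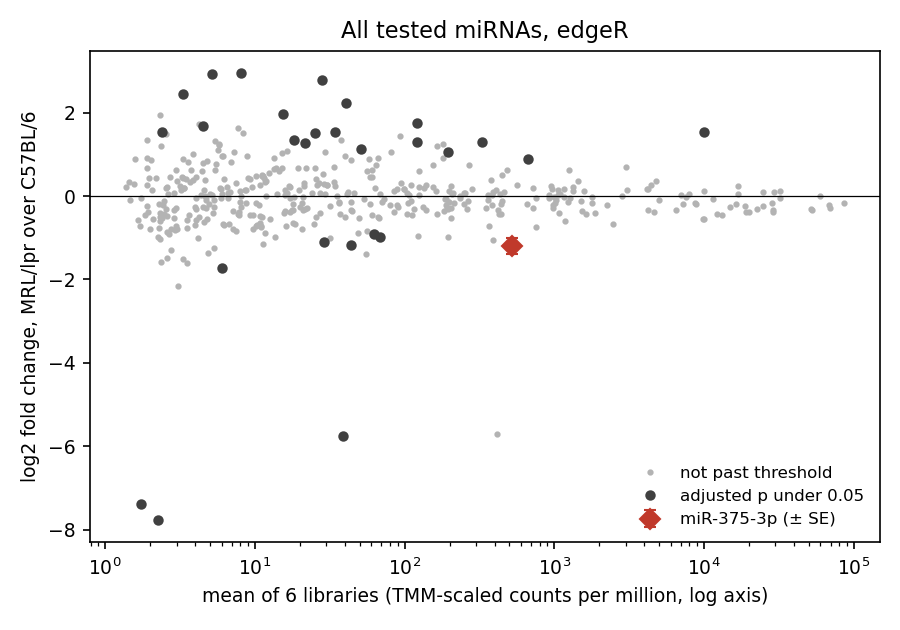
Mean level over the 6 libraries (horizontal log axis, TMM-scaled CPM) against the edgeR log2 fold change, MRL/lpr over C57BL/6 (vertical axis), for the 451 tested miRNAs. Grey points did not pass an adjusted p of 0.05, dark points did, and the red diamond is miR-375-3p at 522 CPM and -1.19 with its SE.

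Replicates of a strain were close for this miRNA. The coefficient of variation of its CPM was 11.4% in C57BL/6, and 370 of the 451 tested miRNAs varied more (median 24.7%). In MRL/lpr it was 11.8%, and 335 varied more (median 18.7%). Counting error was a small part of this spread, given at least 1706 counts per library.

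The size of the change moved little with how the libraries were put on a common scale. The log2 fold change was -1.18 with RLE size factors, -1.22 with upper-quartile scaling and -1.05 with library size alone, a scaling that shifted the typical tested miRNA by 0.15 (median, log2). Ratios within a library need no scaling at all. Against each of the 443 other tested miRNAs that had counts in every library, the ratio of miR-375-3p to that miRNA was lower in every MRL/lpr library than in every C57BL/6 library for 326. It was higher in every MRL/lpr library for 1, miR-383-5p, and the strains overlapped for 116. These ratios share the same miR-375-3p counts and are a description, with no test.

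**Figure D3:**
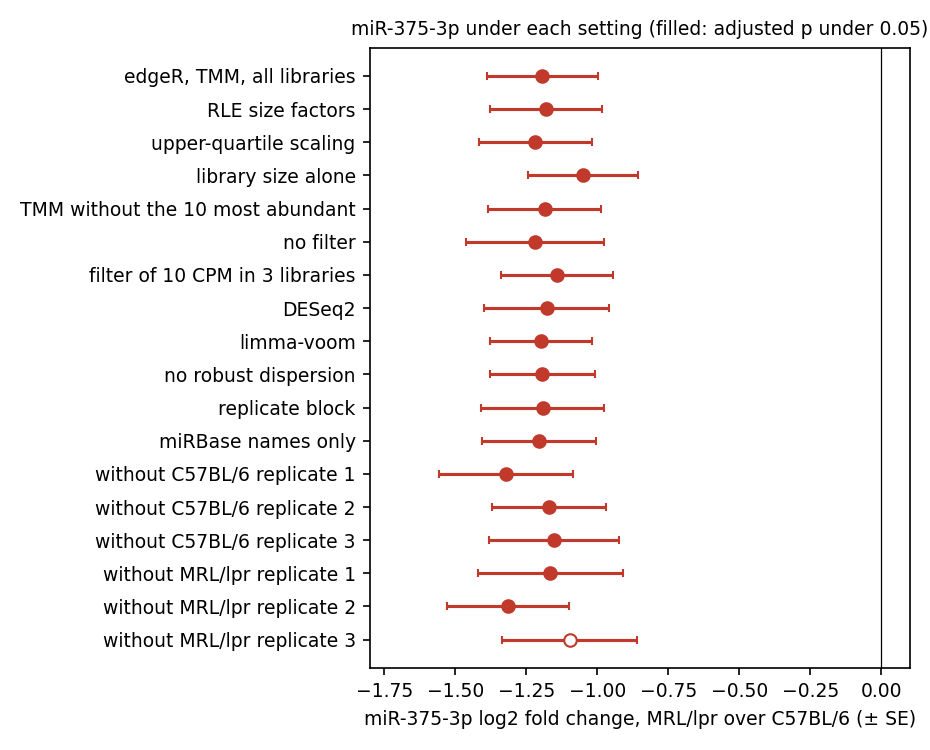
Log2 fold change of miR-375-3p, MRL/lpr over C57BL/6 (horizontal axis, ± SE), in the fit with all libraries (top) and in 17 other settings (vertical axis). Filled points passed an adjusted p of 0.05 in that setting, and the open point, without MRL/lpr replicate 3, did not. Values run from -1.32 to -1.05.

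Epithelial miRNAs were set beside miR-375-3p to see whether it moved with the epithelium as a whole. The miR-200 family (miR-200a-3p, miR-200b-3p, miR-200c-3p, miR-141-3p and miR-429-3p), which maintains the epithelial state by repressing Zeb1 and Zeb2, had 0 of 5 tested members past the threshold. Over all tested miRNAs 6.21% were called, so 0 of 5 is near the background and is no result about the family. Its median log2 fold change was 0.11 (-0.082 without C57BL/6 replicate 2), against -0.027 over all 451. With library size alone the median was 0.27, against 0.12 over all tested miRNAs. The most abundant, miR-429-3p, had a log2 fold change of 0.11 and miR-200b-3p one of -0.19. The largest in the family was that of miR-141-3p, at 0.63 ± 0.23 SE (edgeR adjusted p = 0.133). Among the kidney tubule miRNAs, 2 of 7 tested rose and 0 fell, against 4.21% higher and 2.00% lower over all tested miRNAs, with a median of 0.16. The 2 were miR-204-5p, an epithelial miRNA, from 5195 ± 815 to 14945 ± 2090.2 CPM, and miR-802-5p, a kidney and liver miRNA, from 55.2 ± 20.01 to 185 ± 14.5 CPM (SD, n = 3). miR-802-5p did not pass without MRL/lpr replicate 3 (edgeR adjusted p = 0.0643), which left 1 of 7. miR-192-5p, an abundant tubular miRNA, had a log2 fold change of 0.11. That of miR-10b-5p was -0.42 ± 0.14 SE (edgeR adjusted p = 0.101), the only negative value among the 7 tested tubule miRNAs.

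Within each library, the log2 level of miR-375-3p minus the mean log2 level of the miR-200 family was -2.65, -2.17 and -2.26 in C57BL/6. In MRL/lpr it was -3.67, -3.47 and -3.97. The strains did not overlap, and miR-375-3p was lower relative to the family by 1.34 on the log2 scale, computed as a change of -1.34 from -2.36 ± 0.25 to -3.70 ± 0.25 (SD, n = 3; exact two-sided permutation p = 0.1, the smallest p possible). Against 5 abundant tubule miRNAs (miR-192-5p, miR-194-5p, miR-30a-5p, miR-30d-5p and miR-10b-5p) the C57BL/6 differences were -4.08, -3.51 and -3.73, while those of MRL/lpr were -4.94, -4.85 and -5.25. The strains were again apart, with a change of -1.24 (exact permutation p = 0.1). Both changes lay near the -1.19 of the fit over all miRNAs. They rest on the same miR-375-3p counts as that fit, so they are not separate evidence of the change.

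Of the miRNAs known from secretory and neuroendocrine cells, miR-375-3p was the 1 that passed the test. The list held 11 names, 10 were tested, 1 was lower and 0 were higher, against 6.21% called over all tested miRNAs, so 1 of 10 is near the background and is no result about the list. Without MRL/lpr replicate 3 the count was 0 of 10. The median log2 fold change was -0.096 (0.045 with library size alone). The other 9 had log2 fold changes from -0.63 ± 0.42 SE for miR-7b-5p to 0.27 ± 0.18 SE for miR-7a-5p, with a median of -0.070. miR-7a-5p, which like miR-375 is abundant in pancreatic islets, was similar to miR-375-3p in level. It had 536, 508 and 499 CPM in C57BL/6 and 655, 648 and 559 CPM in MRL/lpr, so its MRL/lpr libraries were the higher ones, although it did not pass (edgeR adjusted p = 0.419). In C57BL/6 miR-375-3p lay above miR-7a-5p in each library, and in MRL/lpr it lay below it in each. miR-9-5p, a miRNA of neural and neuroendocrine cells, averaged 378 ± 45.8 CPM (C57BL/6) and 401 ± 76.5 CPM (MRL/lpr; SD, n = 3; edgeR adjusted p = 0.843). The miR-183, miR-96 and miR-182 cluster of sensory and neuroendocrine cells had log2 fold changes of -0.14, -0.12 and -0.070. Whether the change of miR-375-3p differs from that of the other members was not tested.

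**Figure D4:**
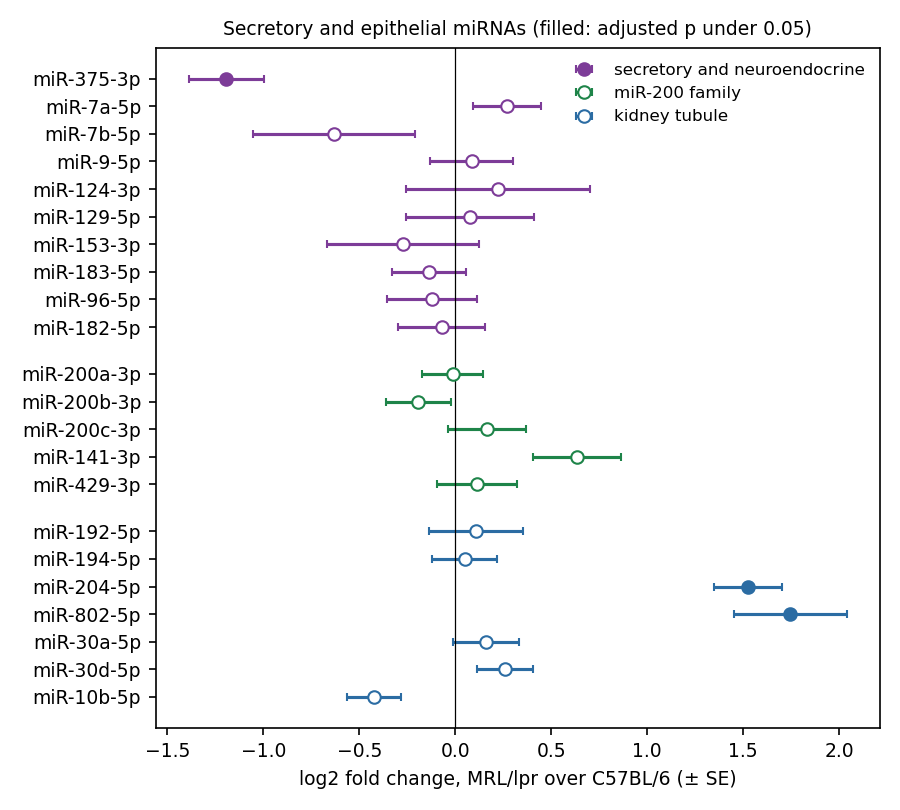
Log2 fold change, MRL/lpr over C57BL/6 (horizontal axis, ± SE), of the tested members of the secretory and neuroendocrine list, the miR-200 family and the kidney tubule list (vertical axis). Filled points passed an adjusted p of 0.05: miR-375-3p at -1.19, miR-204-5p at 1.52 and miR-802-5p at 1.75.

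Markers of other tissues and cells were read in the same libraries. miR-216a-5p, a miRNA of pancreatic acinar cells, was at 0 counts throughout C57BL/6 and at 0, 1 and 2 counts in the MRL/lpr replicates, and the other 2 names of that list were not analysed here. For the liver miRNA miR-122-5p the means were 7.65 ± 3.38 CPM (C57BL/6) and 4.77 ± 3.44 CPM (MRL/lpr; SD, n = 3). The summed level of 7 leukocyte miRNAs ran from 5805 to 28462 CPM in C57BL/6 and from 9078 to 10666 CPM in MRL/lpr. Of these, 1 rose, miR-155-5p of activated lymphocytes and macrophages, and 0 fell, with a median log2 fold change of 0.24. Over all tested miRNAs 4.21% rose and 2.00% fell. The leukocyte count depended on single libraries: it was 5 of 7 without C57BL/6 replicate 2 (median 0.93), where 42 of 470 tested miRNAs rose. It was 0 of 7 without C57BL/6 replicate 1 (median -0.014), C57BL/6 replicate 3, MRL/lpr replicate 1 or MRL/lpr replicate 3. Those runs called 15 of 477, 11 of 471, 19 of 463 and 5 of 472 tested miRNAs. miR-155-5p missed the threshold in 6 of 17 other settings. The C57BL/6 maximum was in replicate 2, a library that stood apart in leukocyte miRNAs, while miR-375-3p lay between the other C57BL/6 libraries there. Without C57BL/6 replicate 2 the log2 fold change of miR-375-3p was -1.17 ± 0.20 SE (edgeR adjusted p = 0.00592), as large as with it. Erythrocyte miRNAs summed to 594 to 3496 CPM in C57BL/6 and 3477 to 4306 CPM in MRL/lpr. Of these, 0 of 3 tested passed the threshold, against 6.21% over all tested miRNAs. The lowest of these sums, 594 CPM, was again in C57BL/6 replicate 2, against 2841 and 3496 CPM in replicates 1 and 3, and leaving that library out moved the list median from 0.70 to 0.26. The 2 endothelial and 4 smooth muscle and mesenchymal miRNAs had medians of -0.19 and -0.091, and 0 passed, against the same 6.21%. The median of the latter list ran from -0.44 without C57BL/6 replicate 3 to 0.26 without C57BL/6 replicate 2. In C57BL/6 replicate 3 its member miR-199a-3p had 37.7 CPM, against 2699 and 5817 CPM in replicates 1 and 2. miR-199b-3p, which has the same mature sequence, had 2348 CPM there against 37.6 and 36.6 CPM. How reads were assigned to either name was not analysed here, so the low miR-199a-3p value cannot be read as a loss of this sequence. The part of these cell types in the change of miR-375-3p was not tested.

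The nearest other hairpin with measured miRNAs on chromosome 1 was that of miR-26b, a miRNA of many tissues, 506263 bases away at chr1:74394310-74394394 on the plus strand. miR-26b-5p averaged 5153 ± 1130 CPM (C57BL/6) and 4818 ± 595 CPM (MRL/lpr; SD, n = 3), with a log2 fold change of -0.097 (edgeR adjusted p = 0.786). miR-26b-3p had 21.8 ± 0.084 and 13.9 ± 3.81 CPM (log2 fold change -0.64 ± 0.28 SE, edgeR adjusted p = 0.215). Neither strand passed the test. The sign of the miR-26b-5p value turned in 3 of 17 other settings.

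The miRNAs whose level tracked that of miR-375-3p most closely over the 6 libraries were sought among 277 with miRBase names and a mean of at least 10 CPM. Pearson's r of the log2 CPM was above 0.9 for 15 of the 277. The highest values were 0.99 for miR-195a-3p, 0.97 for miR-383-5p, 0.96 for miR-676-3p, 0.96 for miR-28a-5p and 0.96 for miR-10a-5p. The mean of miR-195a-3p, 11.0 CPM, was near the minimum. After each strain's mean was removed, the r values in the same order were 0.82, 0.38, 0.63, 0.42 and 0.88. Each was lower than before, most of all for miR-383-5p and miR-28a-5p. The difference between the strains enters every r over the 6 libraries, and its share in each was not tested. miR-383-5p and miR-676-3p are themselves among the lower calls, while miR-195a-3p (log2 fold change -0.75, edgeR adjusted p = 0.153), miR-28a-5p (-0.33, adjusted p = 0.315) and miR-10a-5p (-0.38, adjusted p = 0.133) did not pass. The most opposite patterns were those of miR-3473b (r = -0.99), miR-708-5p (r = -0.95) and miR-467a-5p (r = -0.95), which all rose, although miR-708-5p and miR-467a-5p each missed the threshold in 5 of 17 other settings and miR-3473b in 1. With the strain means removed, their r values were -0.90, -0.26 and -0.062. Each was weaker than before, most of all for miR-708-5p and miR-467a-5p, so the difference between the strains was part of the opposition. With 6 libraries in 2 strains, these values describe the libraries and carry no test.

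The mature sequences of these alike miRNAs are shown, with seeds in capitals, to compare their seeds (RefSeq, GRCm38.p6, 5′ to 3′). miR-383-5p is named only, and the seed of miR-375-3p was not compared.
miR-195a-3p: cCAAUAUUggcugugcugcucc
miR-676-3p: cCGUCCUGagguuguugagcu
miR-28a-5p: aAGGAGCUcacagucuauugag
miR-10a-5p: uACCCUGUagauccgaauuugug
The 4 seeds differ from each other. They come from chr11:70235100-70235121 (miR-195a-3p), chrX:100381151-100381171 (miR-676-3p), chr16:24827868-24827889 (miR-28a-5p) and chr11:96317186-96317208 (miR-10a-5p), each on the plus strand, and none lies on chromosome 1 with Mir375.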

How the data were processed

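Per the labels' protocols, kidney RNA was ligated to adapters, amplified by PCR, size-selected on gels and sequenced as DNA nanoballs. The authors deposited a single table of counts for each mature sequence. These were assumed to be raw and unscaled. Bowtie2, DESeq2 and GRCm38.p6 are named in the submitters' processing notes; their roles, and how reads matching several entries were handled, are not stated in these sources. Without molecular identifiers on record, PCR copies may be counted as molecules. Columns were matched to samples by the group letters, age and replicate number in their names, which are not the titles.

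The tests ran under R 4.3.3, using edgeR 4.0.16 (with limma 3.58.1): filterByExpr (minimum count 10, minimum total 15), TMM, a robust quasi-likelihood fit on group, and Benjamini-Hochberg adjustment over all 451 tested miRNAs (threshold 0.05). The fit was tested on simulated counts. Ratios within libraries used log2(CPM + 1). Alternatives were other scalings, filters and dispersion, DESeq2 1.42.0, limma-voom, named entries only, a replicate block and each library left out. RNAfold 2.7.2 gave the fold, and matplotlib 3.10.9 the figures.

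miR-375 and the lists were chosen with earlier results of these data known. The miRNAs named were miR-375, the 5 most alike and 3 most opposite in pattern, those from hairpins within 1 Mb and the named lower calls. From each list its called members were named or, with none called, its most abundant. The most abundant was left unnamed for the erythrocyte list, the endothelial list and the smooth muscle and mesenchymal list. miR-7a-5p, miR-7b-5p, miR-9-5p, miR-10b-5p, miR-125b-5p, miR-141-3p, miR-192-5p, miR-199a-3p, miR-199b-3p, miR-200b-3p and the miR-183 cluster were named after their values were seen.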

Additional observations from a re-analysis of the deposited data

How the results depend on the processing

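The log2 fold change of miR-375-3p kept its direction in all 17 alternatives and passed the threshold in 16. It ran from -1.32 to -1.10 over the runs that left out a library, and the exception was the run without MRL/lpr replicate 3 (edgeR adjusted p = 0.0654; over all alternatives the adjusted p ran from 6.45e-06 to 0.0654). The number of miRNAs called was 28 of 451 with all libraries, 64 of 1395 without a filter, 51 of 612 with DESeq2 and 13 of 451 with the replicate block. With a library left out it ran from 5 of 472 to 54 of 470. The deviations of same-numbered libraries from their strain means correlated at -0.34, 0.020 and -0.33 over the tested miRNAs. Those of different-numbered libraries ran from -0.18 to 0.37. Deviations cancel within a strain, so these values depend on each other, and a batch shared by replicate number was not tested. With the replicate block the log2 fold change of miR-375-3p was -1.19 (edgeR adjusted p = 0.0413). The changes relative to the miR-200 family and to tubule miRNAs moved by less than the spread between libraries in each alternative run. The log2 fold change of miR-26b-5p turned to 0.065 with library size alone and ran from -0.24 to 0.049 with a library left out (above 0 without C57BL/6 replicate 1 or MRL/lpr replicate 1). That of miR-9-5p ran from -0.040 to 0.20 with a library left out (below 0 without the same 2 libraries). The causes were not tested. The arm ratio of miR-375 and the planned tests of miR-375-5p were not run.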
